A study of Mus musculus with 4 samples.

Results

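The 9 genes considered here encode enzymes that make or break down asparagine, proline, glutamate and aspartate: Asns, Gpt2, Pycr1, Aldh18a1, Got1, Got2, Glud1, Oat and Prodh. The genes were chosen by name, with earlier results of these data known. Their probes were found by matching the accession that each array gives for a probe to a RefSeq gene table. This placed 9 of 55681 probes on 8 of the 9 genes. No probe was matched to Pycr1 in this way, and a probe that the study itself assigns to Pycr1 was read separately. A further probe, A_55_P2169234, has an accession that the table does not list and may also measure Pycr1, and it was not used here. The samples were brown adipose tissue (BAT) of male mice carrying maP2::Fv2E-PERK, a transgene in which the promoter of aP2 (Fabp4) drives the kinase domain of PERK fused to a domain that dimerizes on binding AP20187 (AP). The groups were 2 vehicle-treated and 2 AP-treated Tg mice of 8 weeks of age, killed 12 h after an intraperitoneal injection. The labels give the AP dose as 1 ng/g and a figure legend gives 0.05 mg/kg, and the difference is not explained. All 4 mice carry the transgene on a C57/BL6N background, and no array of mice given AP without the transgene was analysed here, so AP itself and activation of the kinase cannot be told apart. Besides white and brown adipocytes, macrophages can use the aP2 promoter.

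PERK phosphorylates the translation factor eIF2α, which starts the integrated stress response (ISR), and the transcription factor ATF4 is then translated and turns on genes for amino acid supply. Asparagine synthetase is a classical ATF4 target, and the proline pathway runs from glutamate through Aldh18a1 and Pycr1, while Prodh starts the return from proline to glutamate. The transaminases Gpt2, Got1 and Got2 move amino groups between glutamate and alanine or aspartate, and Glud1 links glutamate to the citric acid cycle in mitochondria.

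ATF4 binds a composite site known as the C/EBP-ATF response element, so the RefSeq promoter windows (GRCm38.p6, 250 bases before to 50 bases after each gene start) were searched on both strands for its core, TGATGNAA, where N is any base. All 9 genes had 1 window each, and 3 of the 9, those of Asns, Pycr1 and Got1, held the letters, against 3.97% of all 32851 windows (1304 windows). The cAMP response element TGACGTCA, a palindrome, was in 0 of the 9 windows and in 1.79% of all windows. These stretches carry the 3 matches, are written 5′ to 3′ on the strand of the gene, and show the matched letters in capitals. They lie at chr6:7693210-7693258 (Asns), chr11:120643818-120643877 (Pycr1) and chr19:43524674-43524733 (Got1), all on the minus strand.
Asns: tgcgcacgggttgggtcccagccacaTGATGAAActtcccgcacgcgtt
Pycr1: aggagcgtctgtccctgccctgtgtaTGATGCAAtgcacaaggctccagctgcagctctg
Got1: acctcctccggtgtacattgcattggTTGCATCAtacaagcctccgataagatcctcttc
The Asns match lies 23 to 16 bases before the start, the Pycr1 match 103 to 96 and the Got1 match 102 to 95, and the Got1 letters read TGATGCAA on the other strand. A match of letters is a description and not a bound site.

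Each array gave between 46.4 and 49.0% of spots well above background and 0 saturated spots. Signals are given on a log2 scale on which 0 is the 75th percentile of the spots of an array. A probe was compared when both arrays of a group, vehicle or AP, detected it well above background. Across these 24973 probes, 0 passed an adjusted p of 0.05 by limma, or 0%, while 1515 had an unadjusted p under 0.05. The methods' t-test gave 0 after adjustment and 1478 before. The array of vehicle replicate 2 stood apart in the sums of several cell type lists, and fold changes of the enzyme genes, and of the pathway genes given one by one, are therefore also shown without it. Some are given without vehicle replicate 1 too, which had the lowest skeletal muscle sum. The 14 skeletal muscle genes were all highest in vehicle replicate 2. Their summed signal there was 930.8 times the percentile, against 48.1 in vehicle replicate 1 and 576 and 310.2 in AP replicates 1 and 2. Both AP arrays lay between the vehicle arrays in this sum, and the mean of the sums was not higher with AP. On the log2 scale, where the low vehicle replicate 1 weighs more, the mean was higher with AP for 14 of the 14. The summed signal of 11 brown adipocyte genes, including Ucp1 and Cidea, was lowest in vehicle replicate 2, at 5087 against 6181 to 7701 in the other 3. Gene by gene, 5 of the 11 were lowest on that array and 2 were highest on it. All 11 were well above background on every array. Lymphocyte and MHC class II genes summed to 154 there and 49.1 to 57.7 elsewhere, with Cd79a above background on no array. The 10 macrophage genes measured summed to 41.1 and 57.0 with the vehicle and 35.1 and 31.8 with AP. Itgam alone of these had groups that did not overlap. On the log2 scale it was at 4.21 and 3.82 with the vehicle and 2.85 and 3.42 with AP. Gene by gene, 8 of the 10 were highest in vehicle replicate 2. The 7 white adipose genes summed to 47.2 and 54.6 with the vehicle and 33.5 and 37.6 with AP. Most of this sum was the signal of Retn alone. On the log2 scale Retn was at 5.50 and 5.40 with the vehicle and 4.98 and 5.16 with AP. Hoxc9, Hoxc10 and Tcf21 of that list were above background on no array, while Lep, Retn and Nnat were so on all 4. Lep was at 0.04 and 1.45 with the vehicle and -0.63 and -0.63 with AP. Its log2 fold change was -1.38, with an unadjusted p of 0.0465 and an adjusted p of 0.80 by limma. Both Lep and Nnat were highest in vehicle replicate 2, with Nnat at 3.23 there against -0.40 to 0.19. Agt, above background on 3 arrays, had a log2 fold change of 0.75 (standard error 0.52). It was at -2.95 and -4.41 with the vehicle and -2.96 and -2.90 with AP, so this difference rested on vehicle replicate 2. Whether these markers play a part in the values of the enzyme genes was not tested. In bulk tissue, fewer cells of a type and less RNA per cell cannot be told apart.

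Asns and Gpt2 were 2.25-fold and 1.75-fold higher with AP and had the lowest unadjusted p values of the enzyme genes. Glud1 was 1.27-fold higher, and for all 3 genes neither AP array reached down to a vehicle array. None of the 8 genes compared passed the adjusted threshold (limma, Benjamini-Hochberg over all probes). At an unadjusted limma p under 0.05, 2 of 8 were higher and 0 lower, against a background of 3.3% and 2.77% of all probes (823 higher and 692 lower). That split depended on the scaling, with 995 higher and 444 lower when arrays were scaled to their median and 448 higher and 1379 lower in the authors' log2 values, where the median of all probes was -0.17. In 3 of 8 both AP arrays lay above both vehicle arrays and in 0 below, against 18% and 20.4% of all probes. The 8 genes had a median log2 fold change of 0.58, with 7 higher and 1 lower, beside -0.01 over all probes. Without vehicle replicate 2 these medians were 0.52 and -0.05. The list was chosen with earlier results of these data known, so these counts and medians only describe it.

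**Figure D1:**
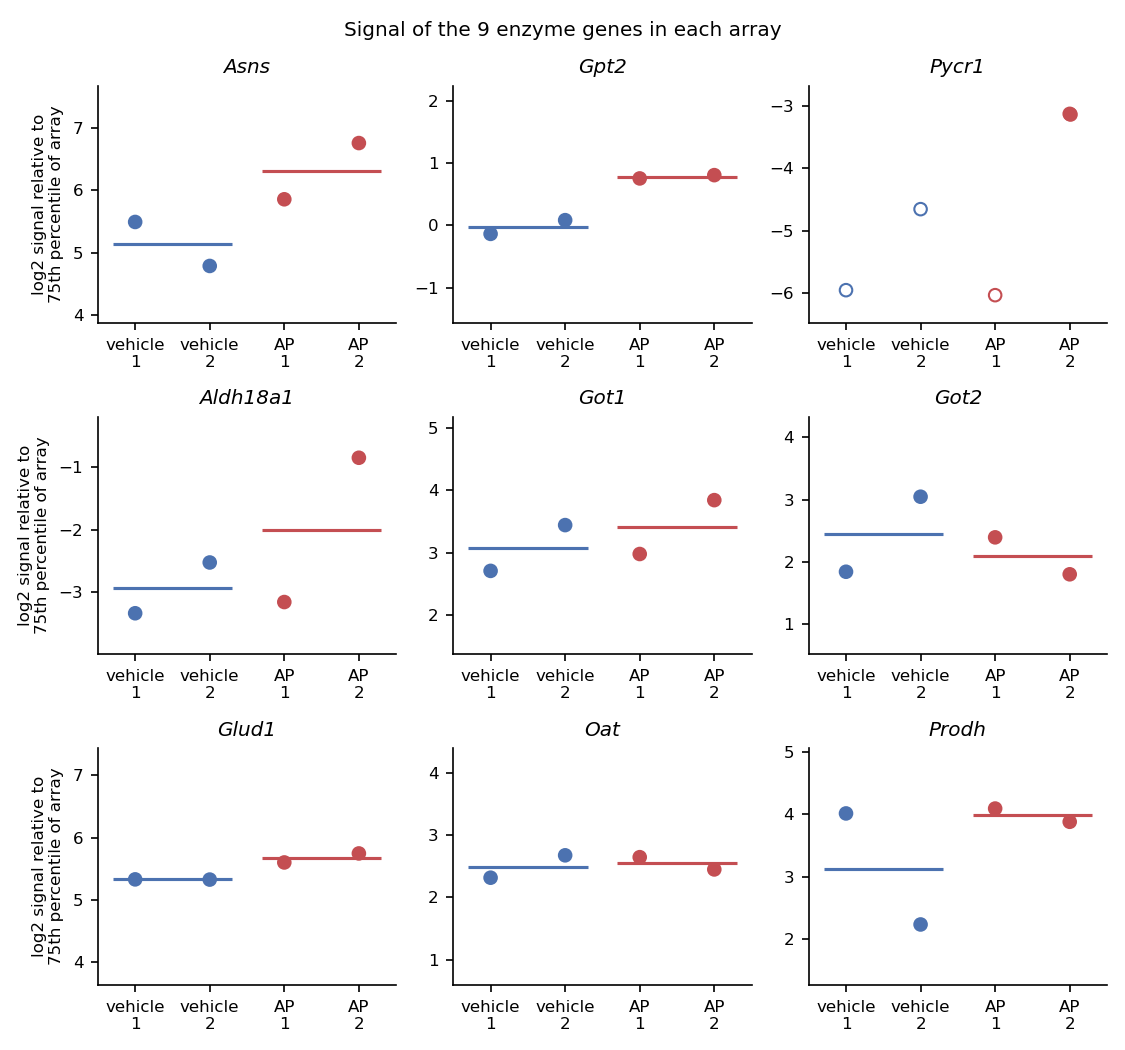
The log2 signal, where 0 is the 75th percentile of an array, is plotted for each of the 9 genes in each of the 4 mice, with points for mice, lines for group means, blue for vehicle and red for AP. All panels span the same range of log2 units, open points were not well above background, and the groups separate for Asns, Gpt2 and Glud1.

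Asns, which transfers the amide nitrogen of glutamine to aspartate to make asparagine, was measured by 1 probe (A_55_P1959748). With the vehicle its processed signal was 5359.5 in replicate 1 and 4387 in replicate 2, and with AP it was 7402 in replicate 1 and 12838 in replicate 2. On the normalized log2 scale this was 5.49 and 4.79 against 5.86 and 6.76, or 5.14 ± 0.50 (SD, n = 2) with the vehicle and 6.31 ± 0.64 (SD, n = 2) with AP. The groups did not overlap, but AP replicate 1 was close to vehicle replicate 1, and AP replicate 2 was the highest of the 4. Between groups the log2 fold change was 1.17 (standard error 0.43, 95% interval 0.03 to 2.30), with an unadjusted p of 0.0456 and an adjusted p of 0.80 by limma. An exact two-sided permutation test gave p = 0.333, the smallest that 2 against 2 mice allow. Ranked from the largest rise with AP downwards, Asns was number 347 of 24973 probes. Its value was 0.81 without vehicle replicate 2, 1.62 without AP replicate 1 and 0.72 without AP replicate 2. The methods' t-test, run on the same values, gave an unadjusted p of 0.178.

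The signal of Atf4, which encodes the transcription factor upstream of Asns, was 7.49 and 6.12 with the vehicle and 7.26 and 8.23 with AP on the same log2 scale, so its groups overlapped. As for Asns, the lowest array was vehicle replicate 2 and the highest AP replicate 2. Without vehicle replicate 2 the difference in Atf4 was 0.26 in place of 0.94. Ddit3, which the ISR is known to turn on, was at 2.18 and 1.86 with the vehicle and 3.03 and 4.22 with AP. Trib3, another such gene, was at 2.78 and 2.33 with the vehicle and 6.26 and 8.01 with AP. The groups did not overlap for either gene, and AP replicate 2 was the higher AP array for both. Their log2 fold changes were 1.61 (standard error 0.45) and 4.57 (standard error 0.63), with an adjusted p of 0.80 for each by limma, and 1.45 and 4.35 without vehicle replicate 2.

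By the distance over the 4 arrays between signals centred on the vehicle mean, the 5 genes most like Asns among 12130 named genes were Bri3bp, Rcl1, Atg101, Cars and Sqstm1. Their distances were 0.11 to 0.29 log2 units and their log2 fold changes 0.99 to 1.12. Cars encodes cysteinyl-tRNA synthetase, Rcl1 acts in ribosomal RNA processing, Atg101 belongs to the complex that starts autophagy and Sqstm1 is an autophagy receptor. With 4 arrays, likeness describes these mice only.

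Gpt2, the mitochondrial enzyme that exchanges amino groups between alanine and glutamate, had the tightest replicates among the genes with an unadjusted limma p under 0.05 (probe A_51_P493886). Processed signals of 108.0 and 167.9 were found with the vehicle, and of 214.7 and 206.7 with AP. Normalized log2 signals were -0.14 and 0.08 against 0.75 and 0.80, with no overlap between the groups. The means were -0.03 ± 0.16 and 0.78 ± 0.04 (SD, n = 2 each). Between them the log2 fold change was 0.81 (standard error 0.21, 95% interval 0.25 to 1.36), with an unadjusted p of 0.0149 and an adjusted p of 0.80 by limma, and p = 0.333 by the exact permutation test. Each mouse left out in turn gave 0.70 to 0.92, and the value without vehicle replicate 2 was 0.92. Gpt, the cytosolic form of the same activity, was at 5.38 and 4.90 with the vehicle and 4.05 and 4.76 with AP. Both AP arrays were below both vehicle arrays, with a log2 fold change of -0.74 (standard error 0.35, adjusted p = 0.80 by limma), or -0.98 without vehicle replicate 2.

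Glud1, glutamate dehydrogenase of the mitochondrial matrix, was measured by 2 probes. Probe A_55_P2108171, the brighter of them, gave 5.33 and 5.33 with the vehicle and 5.60 and 5.75 with AP. Probe A_55_P2065716 gave 4.81 and 4.73 against 4.95 and 5.09. With both probes the arrays of the AP group were the higher ones, by 0.35 (standard error 0.20, 95% interval -0.19 to 0.88) and 0.25 (standard error 0.21, 95% interval -0.29 to 0.79) on the log2 scale. The adjusted p was 0.80 and 0.83 by limma. Without vehicle replicate 2 the brighter probe gave 0.34. The vehicle-treated mice were closest to each other at the brighter probe, with an SD of 0.0023, and by the methods' t-test, which takes its spread from this gene alone, the unadjusted p was 0.0412 against 0.156 by limma.

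**Figure D2:**
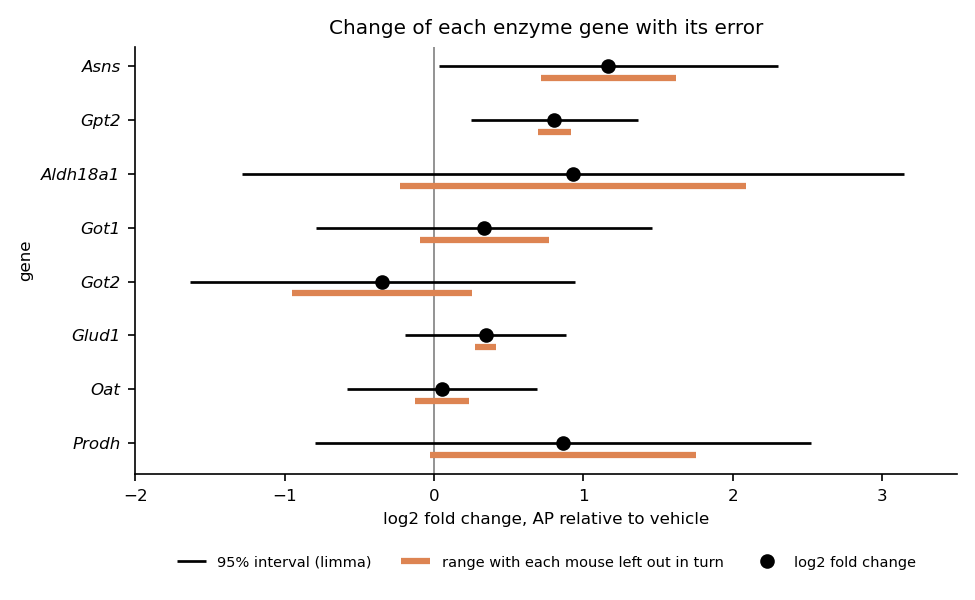
The log2 fold change of AP relative to vehicle is plotted for the 8 genes compared, with black bars for the 95% interval of limma and orange bars for the range over fits that each omit 1 mouse. The interval lies above 0 for Asns and Gpt2 alone. The orange bar stays above 0 for Asns, Gpt2 and Glud1, as it must where the groups do not overlap.

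Aldh18a1, which turns glutamate into the precursor of both proline and ornithine, was a dim probe whose mean rested on 1 mouse (probe A_51_P215887). The processed signal was 11.7 and 27.5 with the vehicle and 14.3 and 65.9 with AP, and it was well above background on all 4 arrays. Normalized log2 signals were -3.34 and -2.53 against -3.16 and -0.85. AP replicate 2 was the highest, while AP replicate 1 lay within the range of the vehicle-treated mice. Its difference on the log2 scale was 0.93 (standard error 0.84, 95% interval -1.28 to 3.14, adjusted p = 0.84 by limma), and it was 1.34 without vehicle replicate 2, -0.23 without AP replicate 2 and 0.29 under normexp background correction.

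Pycr1 carries out the last step of proline synthesis. At the probe given that name (A_51_P503896), the processed signal was 1.92 and 6.30 with the vehicle and 1.95 and 13.6 with AP. Only AP replicate 2 was well above background, so the probe entered no test and has no fold change here. These values describe that probe alone.

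Psat1, a transaminase of serine synthesis that uses glutamate, was also highest in AP replicate 2, at 2.53 on the log2 scale, against 0.14 in AP replicate 1 and -0.46 and 0.74 with the vehicle. Its log2 fold change was 1.20 (standard error 0.91, adjusted p = 0.82 by limma). The gene listed as Pycrl (Pycr3), which catalyzes the same last step of proline synthesis as Pycr1, was at 0.23 on the log2 fold change scale, with a standard error of 0.26.

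Oat, which joins ornithine to the proline pathway, was the least different of the 8 genes (probe A_51_P141535). Normalized log2 signals were 2.31 and 2.67 with the vehicle and 2.64 and 2.45 with AP, so the groups overlapped. Its log2 fold change was 0.05 (standard error 0.24) with a 95% interval of -0.58 to 0.69. Differences of either direction within that interval are compatible with these data. The value without vehicle replicate 2 was 0.23.

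Prodh, the mitochondrial enzyme that opens proline breakdown, was low in vehicle replicate 2 alone (probe A_51_P215438). The processed signal was 1922 and 746.8 with the vehicle and 2178 and 1746 with AP. Normalized log2 signals were 4.02 and 2.23 against 4.09 and 3.88, and vehicle replicate 1 lay between the AP arrays. The log2 fold change was 0.86 (standard error 0.63, 95% interval -0.80 to 2.52, adjusted p = 0.82 by limma). It became 1.75 without vehicle replicate 1 and -0.03 without vehicle replicate 2. Aspg, an asparaginase, and Glul, which makes glutamine from glutamate, were also lowest on that array, at 3.40 and 5.82, against 6.44 and 7.22 in vehicle replicate 1.

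Got1 and Got2 encode the cytosolic and mitochondrial aspartate transaminases, paralogs that work together in the malate-aspartate shuttle. Got1 (probe A_55_P1958434) was at 2.71 and 3.44 with the vehicle and 2.98 and 3.84 with AP. Got2 (probe A_51_P175871) was at 1.84 and 3.05 with the vehicle and 2.40 and 1.80 with AP. The groups overlapped for both genes. The log2 fold change was 0.34 for Got1 (standard error 0.42, 95% interval -0.79 to 1.46, adjusted p = 0.88 by limma). It was -0.35 for Got2 (standard error 0.49, 95% interval -1.63 to 0.94, adjusted p = 0.89 by limma).

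Got1 and Got2 differed in the mice that were high. Got2 was highest in vehicle replicate 2 and Got1 in AP replicate 2. Got1 was at 0.70 and Got2 at 0.26 on the log2 fold change scale without vehicle replicate 2, so Got2 turned its direction. Without vehicle replicate 1 Got1 was at -0.03 and Got2 at -0.95, so Got1 turned its direction. The summed signal of skeletal muscle markers was highest in vehicle replicate 2 and lowest in vehicle replicate 1. Their part in the values of Got1 and Got2 was not tested. Slc25a12, a carrier of the same shuttle, was also highest in vehicle replicate 2, at 1.22, and was lowest in vehicle replicate 1, with the AP arrays between them at 0.55 and 0.11. Its log2 fold change was 0.22 (standard error 0.78, adjusted p = 0.96 by limma), or 1.33 without vehicle replicate 2.

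**Figure D3:**
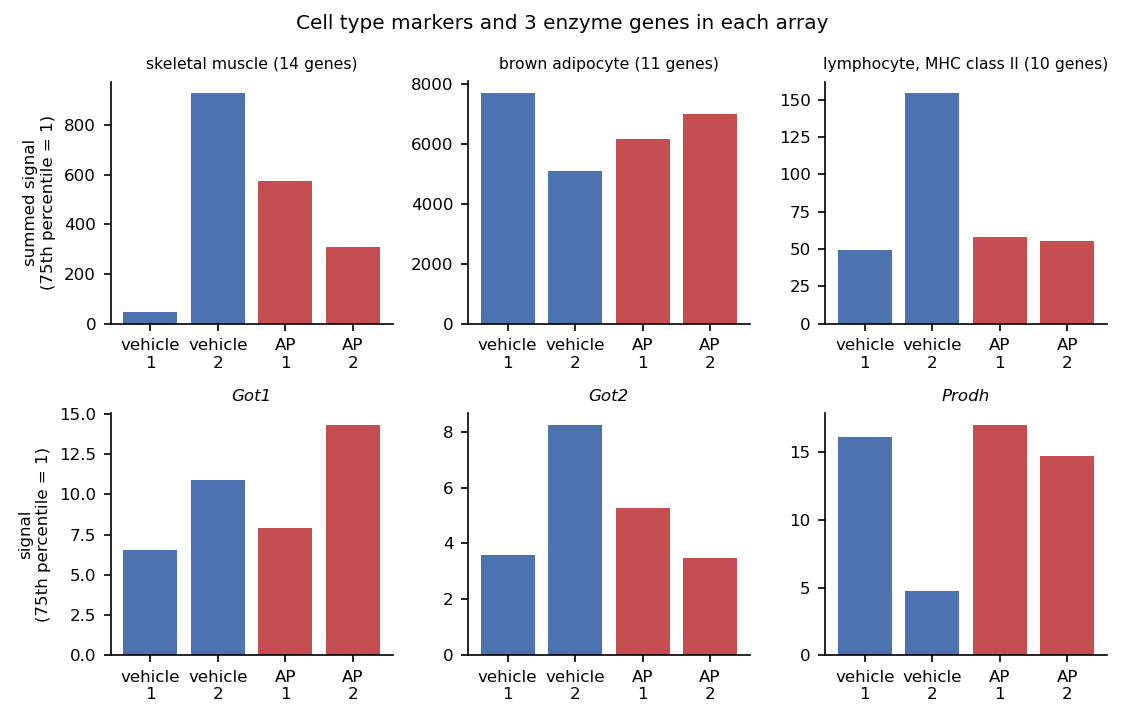
The upper bars give the summed signal of 3 marker lists in each mouse and the lower bars the signal of Got1, Got2 and Prodh, on a linear scale where 1 is the 75th percentile of the array (blue, vehicle; red, AP). Vehicle replicate 2 has the highest muscle sum and Got2 signal and the lowest brown adipocyte sum and Prodh signal.

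Among the 8 genes, 5 had vehicle replicate 2 outside the range of the other 3 arrays (Asns, Got2, Glud1, Oat and Prodh), and in 4 the gap within the vehicle pair exceeded the difference between the groups (Got1, Got2, Oat and Prodh). For Glud1 vehicle replicate 2 differed from vehicle replicate 1 by only -0.0033. AP replicate 2 was above AP replicate 1 for 5 of 8, namely Asns, Gpt2, Aldh18a1, Got1 and Glud1. No share over all probes stands beside these counts, so they only describe these mice. For 1 spot on 1 array, the error that the scanner software gave was about 10% of the signal for the bright probes and up to 22.3% for Aldh18a1.

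**Figure D4:**
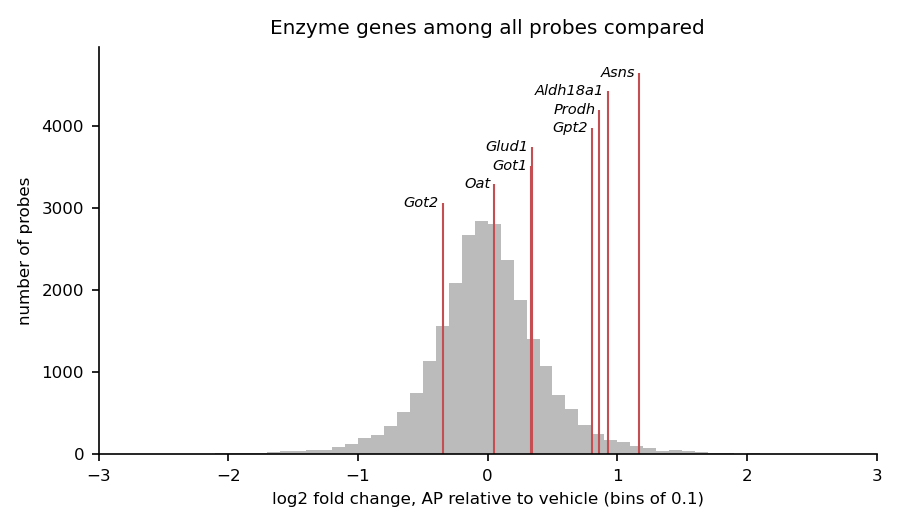
Grey bars count all 24973 probes compared by their log2 fold change in bins of 0.1, shown from -3 to 3, and red lines mark the 8 enzyme genes. Of the lines, 7 lie above 0 and Got2 lies below it, and Asns lies farthest to the right at 1.17.

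Other genes of the same pathways were taken from a list of 56 genes, all of which had a probe. Of these, 40 were bright enough to be compared. The other 16 were too dim, 14 of them above background on no array, among them Arg1, Gls2, Prodh2 and Cad. At an unadjusted limma p under 0.05, 0 were higher and 1 was lower, where all probes gave 3.3% and 2.77%, 0 passed the adjusted threshold, and the median log2 fold change was 0.11, or 0.01 without vehicle replicate 2. The groups did not overlap in 6 that were higher (Slc25a22, Ppat, Asnsd1, Adss, Asl and Adsl) and in 5 that were lower (Nit2, Slc25a11, Kyat1, Gpt and P4ha2). These are 15% and 12.5% of the 40, below the 18% and 20.4% of all probes, so the separation of these genes is no more frequent than the background.

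P4ha2, a subunit of the enzyme that hydroxylates proline in collagen, was the 1 gene with an unadjusted limma p under 0.05, at 1.72 and 0.87 with the vehicle and 0.30 and 0.16 with AP. Its log2 fold change was -1.07 (standard error 0.35, unadjusted p of 0.0308 and adjusted p of 0.80 by limma). Slc25a22, which carries glutamate into mitochondria, was at 2.10 and 2.39 with the vehicle and 3.28 and 2.72 with AP. The difference was 0.75 on the log2 scale (standard error 0.29, adjusted p = 0.80 by limma).

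By role, the 7 genes of proline and ornithine that were compared ran from -1.07 to 0.71 (median 0.13) and the 13 of glutamate and glutamine from -0.65 to 1.00 (median 0.10). The 6 other transaminases ran from -0.74 to 1.20 (median -0.02) and the 10 genes of aspartate and asparagine from -0.42 to 1.22 (median 0.09). The 4 shuttle genes ran from -0.35 to 0.22 (median 0.00). The widest errors belonged to Aspg, at 1.22 with a standard error of 1.07, and Psat1. Glul, at 1.00 with a standard error of 0.55, had overlapping groups. Ass1, which joins aspartate to citrulline, was at -0.42 (standard error 0.36). Aldh4a1, the step after Prodh in proline breakdown, was at 0.13 (standard error 0.33).

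Without vehicle replicate 2, 9 of the 40 pathway genes changed the sign of their difference. Aspg was then at -0.30, Aldh4a1 at -0.26, Pycrl at -0.01 and Ass1 at 0.04, each on the other side of 0. Glul was at 0.30, Psat1 at 1.80, Slc25a22 at 0.90 and P4ha2 at -1.49. By role, the medians were then -0.01 for proline and ornithine, 0.09 for glutamate and glutamine, -0.16 for the other transaminases, 0.06 for aspartate and asparagine and -0.12 for the shuttle.

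**Figure D5:**
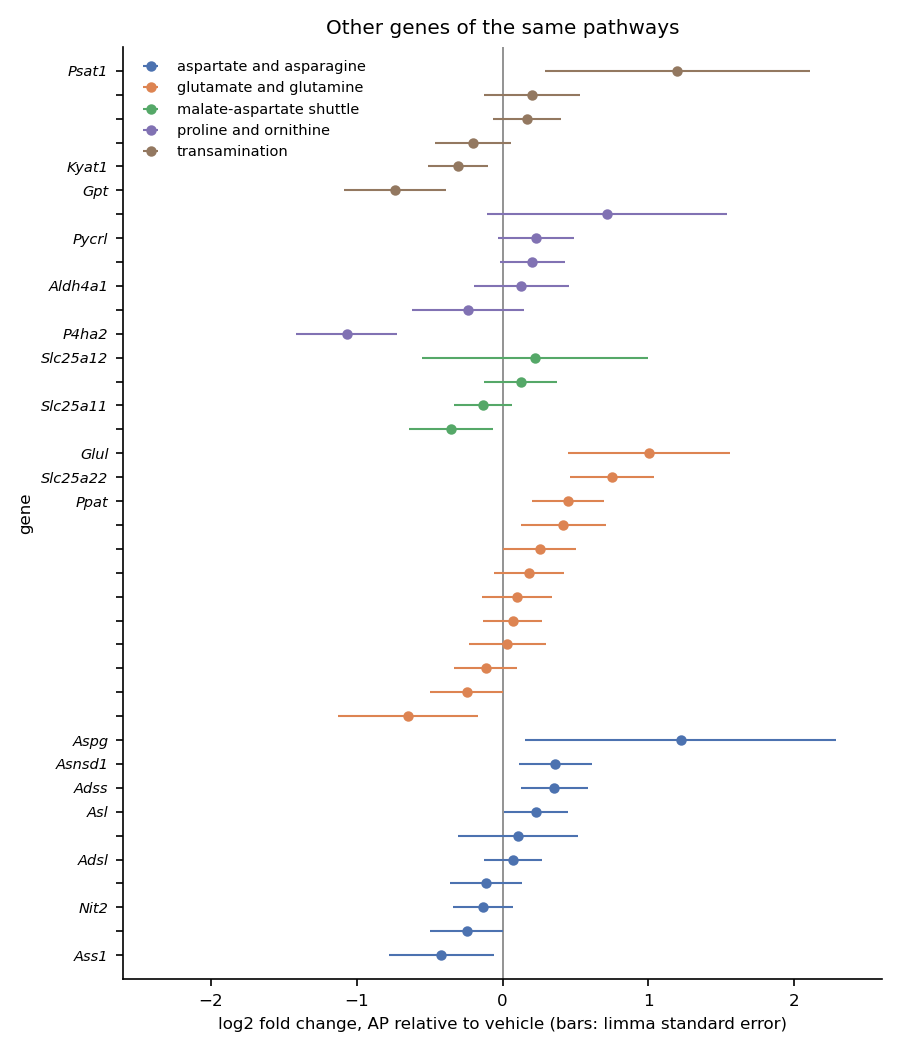
The log2 fold change of AP relative to vehicle is plotted for 38 of the 40 other genes of these pathways, colored by role, with bars for the standard error of limma and labels for genes named in the text. Values run from -1.07 for P4ha2 to 1.22 for Aspg, and most lie within 0.5 of 0.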

How the data were processed

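Total RNA of BAT from each mouse was labeled with Cy3 and hybridized to its own Agilent SurePrint G3 Mouse array. The authors extracted the scans with Agilent Feature Extraction (10.7.1.1 in the submitters' processing notes), whose background subtraction and detrending shape dim signals most, and deposited the intensity of each spot not normalized across arrays. A log2 table of these arrays, which the authors deposited too, has an unstated scaling and centring (differences between arrays correlated with those of the intensities at 0.999 over 29061 probes, and the column medians were -0.28, -0.16, -0.44 and -0.29) and was used as an alternative. Flags of the scanner software, deposited as other 0 or 1 columns, chose the spots.

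Processed signals were divided by the 75th percentile of all non-control spots of the array and taken to log2. A percentile without outlier spots was computed first and is given as an alternative. Control and outlier spots were left out and spots of a probe averaged. The 24973 of 55681 probes detected well above background on both arrays of either group were fitted with lmFit and eBayes of limma 3.58.1 (R 4.3.3), with Benjamini-Hochberg adjustment. Names came from RefSeq (GRCm38.p6, names and promoter windows only, since the array design is annotated on another build). Of all probes, 26582 had a name. For Glud1 the probe with the higher mean signal was taken. The rule named all 9 listed genes, pathway genes with an unadjusted p under 0.05 and non-overlapping groups, and pathway genes that share a substrate with a listed gene. Slc25a22, Ppat, Asnsd1, Adss, Adsl, Nit2, Slc25a11, Kyat1, Arg1 and Cad fall outside it and were named after their values were seen. Asrgl1 and Slc25a13 were each above background on 1 array and were not compared.

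The members and lists were chosen with earlier results of these data known, and the grouping of pathway genes by role was made after fold changes of these data had been seen. The Pycr1 probe carries the name that the study gives it. Genes most like Asns were those at the smallest Euclidean distance. An exact permutation test over the 4 arrays stands beside limma. Alternatives were normexp, quantile and median scaling, other filters, a variance trend, the deposited log2 table, a replicate block, the mean of a gene's probes, the methods' t-test and leaving out each mouse. Nothing states how the mice were paired or housed. The limma p values rest on the spread between these 4 mice, with that of each probe drawn towards the spread of all probes. The arrays shared 1 slide and 1 scan. Test code was tried on simulated data. The number of arrays limits the precision. A few genes are not reported here.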

Additional observations from a re-analysis of the deposited data

Results flagged for a closer look

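The probe named Pycr1, which was too dim for the comparison, was well above background in AP replicate 2, with a processed signal of 13.6, and in neither vehicle-treated mouse. It was not above background in AP replicate 1 either, so the signal of this probe rests on 1 mouse, and no other probe was read for the gene. Its cause was not tested.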

How the results depend on the processing

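Asns, Gpt2 and Glud1 kept their direction in 15 of 15 alternatives, Aldh18a1, Got2 and Prodh in 14, Got1 in 13 and Oat in 12. Several alternatives change only the filter, the spread or the test, so the direction of a gene could not change there. For Asns, Gpt2 and Glud1 the groups did not overlap, so leaving out 1 mouse could not turn the direction either. Under each alternative 0 probes passed the adjusted threshold, so this says nothing of stability, and the adjusted p of Asns and Gpt2 ran from 0.668 to 0.921 over the alternatives that keep all mice. Leaving out single mice gave differences from -0.23 to 2.09 for Aldh18a1, from -0.10 to 0.77 for Got1, from -0.95 to 0.26 for Got2, from -0.13 to 0.23 for Oat and from -0.028 to 1.75 for Prodh (log2 scale, lowest without vehicle replicate 2). With the authors' log2 values Oat was at -0.11, where the median of all probes was also lower, at -0.17 against -0.01.

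The count of the 8 genes that were higher at an unadjusted p under 0.05, which is 2, was 1 with no filter on dim probes, 0 with the authors' log2 values, 1 with the replicate block, and 0 to 2 with a mouse left out (1 without vehicle replicate 2, 0 without AP replicate 2). By the methods' t-test it was 2, but these were Gpt2 and Glud1. The median of the 8 genes, 0.58, ran from 0.21 (without AP replicate 2) to 0.76 with a mouse left out. The count of pathway genes that were higher, 0, was 1 with normexp, with the median of each array, with probes above background on all 4 arrays and with a variance trend, 2 with the replicate block and 1 to 2 with a mouse left out. The count that were lower, 1, was 2 with normexp and with the authors' log2 values, and 0 by the methods' t-test. No cause was tested for these shifts. Taking the 75th percentile without outlier spots, a setting used first and replaced after its output was seen, gave 1516 probes at an unadjusted p under 0.05 (792 higher and 724 lower, against 823 and 692) and 2 of the 8 genes higher.

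Nothing but a shared number links mice of the same replicate: across probes, the deviations of such mice had a correlation of -0.13. Without and with the replicate block, 1515 and 1226 probes had an unadjusted p under 0.05. The crossed pairing, added after the data were seen, gave 1566 probes, with 1 pathway gene higher and 2 lower. Slide and scan as a block were not run, since there was 1 of each. Normexp used the median spot signal.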
